A study of Mus musculus with 3 samples.

Results

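The endothelial cells of the mouse ovary were 1699 of the 31776 cells in a deposited single-cell RNA-seq table, or 5.35% (exact binomial 95% interval 5.1 to 5.6). They were selected on measured values: a cell was a member when at least 3 of *Pecam1*, *Cdh5*, *Cldn5*, *Egfl7*, *Emcn* and *Esam* were above 0, with the natural-log value of *Inha* below 2.5, that of *Cyp17a1* below 2 and *Ptprc* at 0. *Inha* marks granulosa cells (GCs), *Cyp17a1* theca cells and *Ptprc* leukocytes, and the limits removed cells over them but not all RNA of other cells, since 1009 members had *Inha* above 0. The libraries were prepared on the 10x Genomics platform from whole ovaries taken 0, 1 and 6 h after an injection of human chorionic gonadotropin (hCG), the hormone that sets off ovulation in place of LH, with 1 library per time point. The study used Kunming mice and describes immature females primed with pregnant mare serum gonadotropin (PMSG), which matches the library at 0 h, and whether the ovaries at 1 and 6 h had PMSG is not given in the sources used here. Neither the genotype, the number of mice behind a library nor the number pooled is given there. Barcodes end in 1, 2 or 3, and no label ties an ending to a library, so the cells are called barcode sets 1, 2 and 3 and no hour after hCG is given to them. A set then has no replicate, a difference between sets cannot be told apart from 1 between libraries, and no p-value is given.

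Endothelial cells line blood and lymphatic vessels. Arteries, capillaries and veins differ in the transcription factors, transporters and adhesion molecules that their endothelium expresses, and sprouting vessels carry tip cells that respond to VEGF. In the ovary the vessels of the theca layer end at the follicle wall and grow into it when the ruptured follicle becomes a corpus luteum, while lymphatic vessels stay in the stroma and theca.

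Set 1 held 494 endothelial cells of 10384 cells (4.76%, 4.36 to 5.18), set 2 held 732 of 9917 (7.38%, 6.87 to 7.91) and set 3 held 473 of 11475 (4.12%, 3.77 to 4.5). The share in set 2 thus lay above those of the other sets by more than the counting error. Endothelial cells had a median of 5838, 5504 and 5066 UMIs in sets 1, 2 and 3, below the 6098, 6405 and 6572 of all other cells. Their UMIs summed to 4522868, 5298122 and 3086991. Of all barcodes, 112 were found in 2 sets, which touched 6 endothelial cells, and no shared barcode was an endothelial cell in both sets.

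A level below is the UMIs of a gene summed over the endothelial cells of a set, per 10000 of all their UMIs, and its 95% interval (exact Poisson for a level, exact conditional binomial for a ratio of levels) covers counting error only. The 6 markers chose the cells, so their levels are a description. *Cldn5*, a tight junction protein, was at 10.3, 9.26 and 7.98 in sets 1, 2 and 3, and *Cdh5*, the VE-cadherin of adherens junctions, at 7.67, 7.87 and 5.63. *Esam*, an adhesion molecule of endothelial junctions, was at 7.73, 9.72 and 11.1, and the sialomucin *Emcn* at 5.23, 5.6 and 9.53. *Pecam1* was nearly level at 5.29, 5.47 and 5.47, and *Egfl7*, a secreted vessel protein, stood at 6.54, 6.98 and 7.35. In all other cells the 6 genes lay between 0.0262 and 0.191.

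The 20 general blood endothelial genes that the rule did not use were higher in the endothelial cells than in all other cells, all 20 of them, and their summed level was 56.1, 65.1 and 64.1 against 3.26, 3.08 and 2.85. *Kdr*, the main VEGF receptor of blood endothelium, was at 4.84, 5.12 and 5.54. *Flt1*, the decoy VEGF receptor, was at 3.88, 5.15 and 4.67. With the 6 markers of the rule left out, and by the ratio to all other cells, among 1313 genes with at least 1 UMI per 10000 in the endothelial cells of every set, the leading genes were *Flt1* (178-fold, 163 to 194), *Myct1* (178-fold, 160 to 198), *Sox17* (167-fold, 148 to 190), *Ctla2a* (156-fold, 150 to 161) and *Icam2* (150-fold, 138 to 164). The other 15 of the leading 20 were *Ly6c1*, *Gimap4*, *Gimap1*, *Ptprb*, *Rasip1*, *Kdr*, *Ly6a*, *Podxl*, *Cyyr1*, *Slc39a8*, *Gimap6*, *Tek*, *Cd93*, *Gimap5* and *Smagp*, the last at 63.2-fold. They include receptors (*Tek*, the angiopoietin receptor, and *Ptprb*, the phosphatase that acts on it) and GTPases of immunity-associated proteins, whose genes lie in 1 cluster and are similar in sequence, as are *Ly6a* and *Ly6c1*.

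The label did not hold to the same degree over all members. Cells with 4, 5 or 6 markers numbered 139, 501 and 912, and the summed level of the 20 general genes was 53.7, 71 and 71 in them. The 147 members with exactly 3 markers had 6.92, close to the 4.78 of the 670 cells with 2 markers that lie just outside the rule. Lists of other cell types summed to 145 in the members with 3 markers and to 136 in the cells with 2, against 18.5 in the members with 6. Most members at the edge of the rule therefore carried the RNA of other cells, with few endothelial genes. At the other limits, 125 cells had 3 or more markers and were kept out, 102 by *Inha*, 19 by *Cyp17a1* and 9 by *Ptprc*, some by more than 1 limit, and their median depth was 10797 UMIs. Results below are therefore also given without the cells of mixed clusters for many genes and lists.

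**Figure D1:**
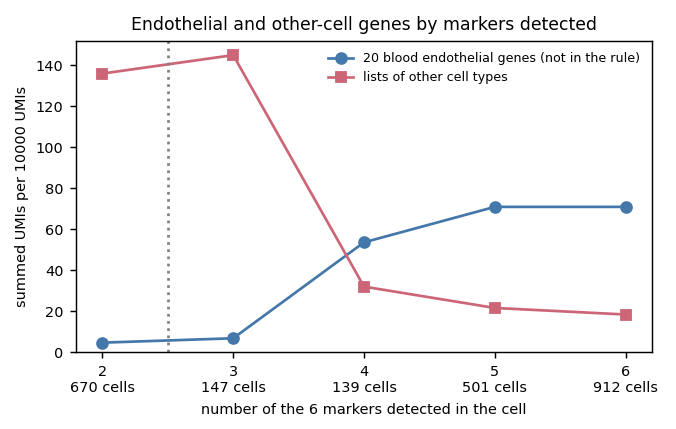
The horizontal axis is the number of the 6 markers detected in a cell, with the number of cells, and the vertical axis is UMIs of a gene list per 10000 UMIs summed over those cells; the dotted line is the rule. Blue circles are the 20 general blood endothelial genes and red squares the lists of other cell types, and the lines cross between 3 and 4 markers.

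Clustering of the endothelial cells within each set gave 10, 11 and 8 clusters (Louvain, resolution 1), written below as set and number, such as 2.3. A cluster was named after a list when at least 3 of its genes were over 2-fold above the other endothelial cells of the set with a counting interval above 1, the list summed to at least 1.5 times theirs, and its leading genes did not go against the name. These limits were set with the clusters in view, and the genes behind a name are no result. Arterial-like clusters were found in every set, 1.6 and 1.9, 2.3 and 2.10, and 3.8, with venous-like clusters 1.4, 2.4 and 3.4. Clusters 1.2 and 2.2 were led by *Esm1*, *Apln*, *Cd300lg* and *Gpihbp1*, and passed the limits for both the tip cell and the capillary list, and 1.2 for the pericyte and smooth muscle list too. Clusters 1.9 and 2.3 also passed for the tip cell list. Lymphatic-like clusters 1.7 and 2.11 held 40 and 23 cells and passed for the tip cell and proliferation lists as well, while in set 3 the lymphatic genes lay in cluster 3.2 together with mitotic genes and the macrophage genes *C1qa*, *C1qb* and *C1qc*, so that cluster was not named. Cluster 2.8 was mitotic-like, and 3.7 was led by the S-phase genes *E2f1*, *Ung* and *Cdc45*. Cluster 1.3 had mitotic genes but was led by the macrophage genes *C1qa*, *Ccl4* and *C1qc*, held by few cells: all but 1 of the 51 *C1qa* UMIs of set 1 lay in it and 2 cells had any.

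Clusters 1.8, 1.10, 2.5 and 3.6 carried stroma or steroidogenic genes and held 144 endothelial cells, or 8.48%, here called mixed cells. Their median depths were 11701, 21983, 11432 and 9661 UMIs, against 5838, 5504 and 5066 for all endothelial cells of sets 1, 2 and 3. Since levels sum UMIs, the mixed cells weigh more in them than their share of cells. The 20 general genes summed to as little as 7.81, 11.8 and 7.25 in the mixed clusters of sets 1, 2 and 3, against 66.9, 76.2 and 72.6 in the other endothelial cells. Of the 147 members with 3 markers, 98 (66.7%) were mixed cells, against 21 of the 912 with 6 (2.3%). Doublets were not removed, and whether the mixed cells are doublets was not tested. Cluster 3.5 passed the limits for arterial genes but was led by hemoglobin genes, with *Hbb-bs* at 30.8, and was not named, and cluster 1.10 had *Hbb-bs* at 8.43.

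**Figure D2:**
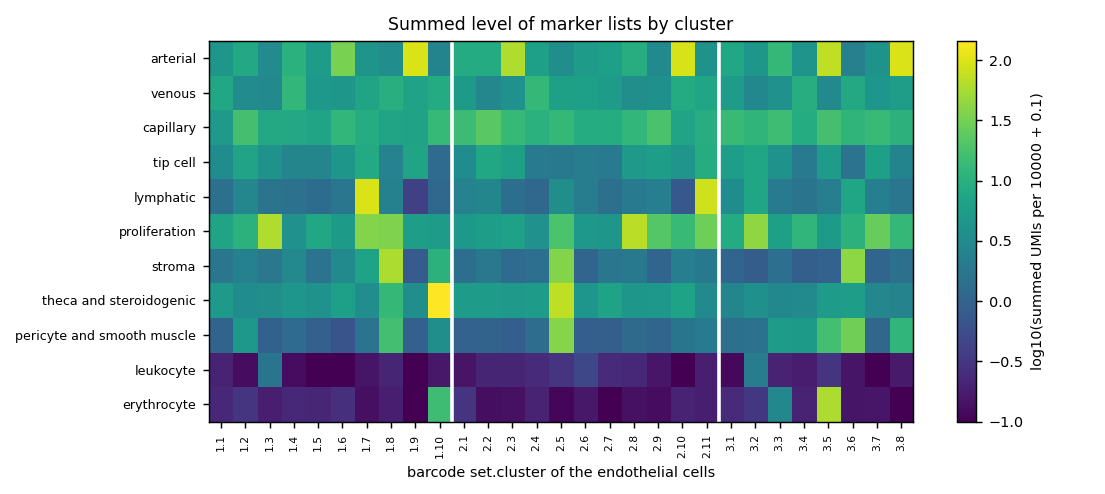
Each column is a cluster of endothelial cells (barcode set, then cluster number), each row a list of marker genes, and the colour is log10 of the list's summed UMIs per 10000 plus 0.1; white lines part the sets. Arterial genes are highest in 1.9, 2.10, 3.5 and 3.8, lymphatic genes in 1.7 and 2.11, and stroma or steroidogenic genes in the mixed clusters 1.8, 1.10, 2.5 and 3.6.

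The lymphatic share was 111 of 1699 endothelial cells with *Lyve1*, a hyaluronan receptor, or *Ccl21a*, the chemokine that draws leukocytes into lymphatic vessels, above 0 (6.53%, 5.4 to 7.81). By set it was 10.9% (54 cells, 8.32 to 14), 4.23% (31 cells, 2.9 to 5.96) and 5.5% (26 cells, 3.62 to 7.95). After thinning each cell to 2000 UMIs it was 9.17%, 3.58% and 3.89%. In all other cells the share was 2.89%, 2.67% and 12.8%, at median depths of 6098, 6405 and 6572 UMIs. In set 3 the share was thus lower among endothelial cells than among the other cells, so there it does not set lymphatic cells apart.

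The 2 genes differed in this. *Lyve1* was found in 12.8% of the other cells of set 3, at a level of 1.03, which is above the 0.191 of the endothelial cells. *Ccl21a* was in 9.92%, 3.69% and 1.48% of endothelial cells in sets 1, 2 and 3 and in 1.5%, 0.653% and 0.0818% of the other cells. Endothelial cells with both genes were 37, 21 and 6 (7.49%, 2.87% and 1.27%), and among the other cells 4, 5 and 6 had both. The endothelial cells with both genes therefore give the same order of sets as *Ccl21a*, and set 3 lay below set 1 without overlap of the intervals (5.33 to 10.2 against 0.467 to 2.74).

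Of the 10 lymphatic genes, *Ccl21a*, *Mmrn1* and *Prox1* were past 2-fold lower in set 2 than in set 1 and again in set 3 than in set 2, against 0.521% and 1.31% of all genes (the bound of the 95% interval nearest to 1 lying past 2-fold). *Ccl21a* was at 7.69, 2.08 and 0.36, 3.7-fold lower in set 2 than in set 1 (3.45 to 3.96) and 5.79-fold lower in set 3 than in set 2 (4.76 to 7.1). *Mmrn1*, a matrix protein of lymphatic endothelium, was at 1.19, 0.372 and 0.123, and *Prox1*, the transcription factor that sets lymphatic identity, at 0.765, 0.274 and 0.068. Nearly all *Ccl21a* UMIs came from few cells: 99.7% of the *Ccl21a* UMIs of set 1 lay in cluster 1.7, 99.6% of those of set 2 in cluster 2.11 and 100% of those of set 3 in cluster 3.2, where 7 cells had any. *Prox1* was less confined, with 87.3%, 84.8% and 81% of its UMIs in these clusters and 70, 40 and 12 endothelial cells with any. Without the mixed cells 6 of the 10 were past 2-fold lower in set 2 than in set 1, against 0.496% of all genes. *Ptx3* and *Tc2n*, which were also among the 10 leading genes lower in set 3 than in set 1, were at 1.07 and 0.0842 and at 0.276 and 0.013, the latter with 4 UMIs in set 3. The list gene *Nts* was past 2-fold higher in set 3 than in set 2, at 1.18 and 0.0906, while the other cells had 14.8 in set 3, so its level in endothelial cells was below that around them.

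Between sets, a gene was counted when the bound of its 95% interval nearest to 1 lay past 2-fold, among genes with at least 50 UMIs over both sets. From set 1 to set 2, 50 of 10356 genes were higher (0.483%) and 54 lower (0.521%). From set 2 to set 3, 60 of 9778 were higher (0.614%) and 128 lower (1.31%). From set 1 to set 3, 64 of 9742 were higher (0.657%) and 196 lower (2.01%), a split that became 108 higher and 202 lower when levels were means over cells. The comparisons share sets and are not independent. The gene lists were chosen with earlier results of these data known, so counts of list genes beside the share of all genes are a description. The median ratio over all genes counted was 0.935, 0.968 and 0.908. Without the mixed cells the counts were 35 higher and 48 lower, 72 higher and 87 lower, and 58 higher and 141 lower, or 0.362% and 0.496%, 0.785% and 0.949%, and 0.637% and 1.55% of the genes then counted.

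Behind *Bhmt* and *Pik3c2g*, which lead the mixed cluster 2.5, the gene furthest lower in set 3 than in set 2 by its interval was *Sox18*, which with *Sox7* and *Sox17* forms the SoxF group of endothelial transcription factors that act in vessel and lymphatic development. *Sox18* stood at 2.09 (1.96 to 2.23) for set 1, at 4.31 (4.13 to 4.49) for set 2 and at 0.476 (0.402 to 0.56) for set 3. Set 3 was 9.05-fold below set 2 (7.65 to 10.8) and 4.4-fold below set 1 (3.69 to 5.27). Without the mixed cells the levels were 2.52, 5.09 and 0.547. It was the only 1 of the 20 general blood endothelial genes past 2-fold in either comparison with set 3, and the median ratio of that list was 1.01 from set 2 to set 3. *Sox7* was at 0.453, 0.517 and 0.227, and its ratio of set 2 over set 3, 2.28 (1.75 to 3.01), did not pass. *Sox17* was at 1.68, 2.51 and 1.67. The 3 factors were thus all highest in set 2. From set 1 to set 3 *Sox7* was 2-fold lower (1.52 to 2.66), which did not pass, and *Sox17* had a ratio of 0.996 (0.889 to 1.12).

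The low *Sox18* of set 3 was found in each cluster that was not mixed: the levels ran from 0.383 to 0.819 over 7 clusters in set 3, from 1.5 to 4.43 over 8 in set 1 and from 2.12 to 6.59 over 10 in set 2. Among these clusters, those of set 3 did not overlap those of the other sets. Clusters of the same library are not replicates, and how many of all genes part the sets in this way was not counted. *Sox18* was detected in 65%, 78% and 25.4% of endothelial cells, and after thinning in 32.6%, 56.7% and 8.7%, against 0.905%, 1.48% and 0.273% of the other cells. Its traces in the other cells, at 0.0563, 0.0914 and 0.0128, moved in the same direction as the endothelial level.

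*Id1* and *Smad6*, which BMP receptors induce, were higher in set 2 than in set 1. *Id1*, a direct BMP target that inhibits differentiation factors, was at 5.09 (4.88 to 5.3), 16 (15.6 to 16.3) and 6.12 (5.85 to 6.4), 3.14-fold higher in set 2 than in set 1 (3 to 3.29) and 2.61-fold higher than in set 3 (2.48 to 2.74). *Smad6*, an inhibitor of BMP signaling, was at 0.0907, 0.359 and 0.155, and 3.96-fold higher in set 2 than in set 1 (2.81 to 5.69). In the other cells the set 2 over set 1 ratios of these genes were 1.13 and 1.32. Of the 14 genes of the BMP and TGF-beta list, *Id1* and *Smad6* were past 2-fold higher from set 1 to set 2, against 0.483% of all genes, and none lower, with a median ratio of 1.45 against 0.935 over all genes, and of 1.39 for the list in the other cells. From set 2 to set 3, 1 of the 14, *Id1*, was past 2-fold lower, against 1.31% of all genes, and none higher. Of the 14, 9 had intervals below 1, against 24.2% of all genes, and 1 above, against 20.7%. The median ratio was 0.69, against 0.746 for the list in the other cells. *Smad7*, the general inhibitor of the pathway, was at 1.42, 2.95 and 1.33 and did not pass in either, at 2.07-fold (1.89 to 2.28) from set 1 to set 2, and its ratio in the other cells was 2.11. Without the mixed cells *Smad7* was past 2-fold lower in set 3 than in set 2, at 1.52, 3.18 and 1.41.

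*Klf2*, a factor induced in endothelium by laminar flow, was at 8.71, 17.6 and 7.43. It was 2.02-fold higher in set 2 than in set 1 (1.95 to 2.1), just short of the limit, and 2.37-fold higher than in set 3 (2.26 to 2.48). After thinning *Klf2* was detected in 66.1%, 79.5% and 62.7% of endothelial cells. In the other cells its share rose instead, at 44.4%, 49.9% and 57.9%. All 7 Klf genes had intervals above 1 from set 1 to set 2 and below 1 from set 2 to set 3, against 9.51% and 24.2% of all genes, with median ratios of 1.31 and 0.658 against 1.67 and 0.764 for the list in the other cells, and *Klf2* was the gene past 2-fold, joined without the mixed cells by *Klf10*, which was then at 0.693, 1.04 and 0.42. *Ccn1*, a matrix protein of angiogenesis that responds to mechanical force, was at 1.02, 2.68 and 0.875, 2.62-fold higher in set 2 than in set 1 (2.36 to 2.92), but at 1.85, 2.29 and 1.7 in the other cells. In the Notch list, 1 of 12 genes, *Heyl*, was past 2-fold higher from set 1 to set 2, against 0.483% of all genes. There 9 of the 12 had intervals above 1, with a median ratio of 1.34 against 1.81 for the list in the other cells. From set 2 to set 3, 1 of 11, *Hes1*, was past 2-fold lower, against 1.31% of all genes, at 2.08, 2.79 and 1.04. Of the 11, 8 had intervals below 1, with a median ratio of 0.554 against 0.523 for the list in the other cells. Without the mixed cells *Heyl*, at 0.0641, 0.247 and 0.0875 with them, was at 0.0219, 0.0684 and 0.026, and no Notch gene was past 2-fold from set 1 to set 2.

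Immediate early genes, which cells switch on within minutes of a stimulus, were also lower in set 3 than in set 2. Of the 19 with enough UMIs from set 2 to set 3, 8 were past 2-fold lower (*Fosl2*, *Egr2*, *Egr3*, *Nr4a1*, *Nr4a3*, *Zfp36*, *Btg2* and *Myc*) and none higher, against 1.31% of all genes lower, with a median ratio of 0.556 against 0.968 over all genes and 0.592 for the list in the other cells. Without the mixed cells 5 were past 2-fold lower, against 0.949% of all genes. *Nr4a1*, an orphan nuclear receptor of the early response, was at 0.918, 2.15 and 0.499 in endothelial cells and at 1.19, 4.64 and 0.808 in all other cells. *Fos* was at 11.7, 9.45 and 7.86. Its level in the other cells was 17.9, 17.5 and 17.7.

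**Figure D3:**
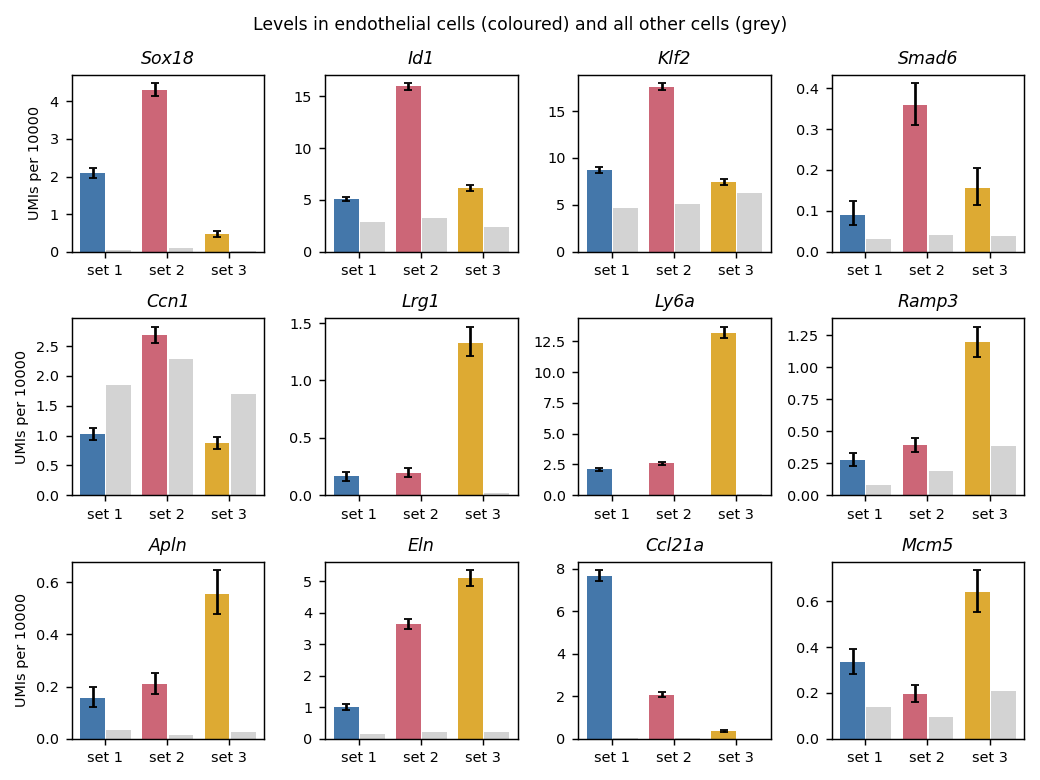
Bars are UMIs per 10000 in each barcode set, coloured for endothelial cells with the exact Poisson 95% interval and grey for all other cells; each panel is a gene with its own scale from 0. *Sox18*, *Id1*, *Klf2*, *Smad6* and *Ccn1* are highest in set 2, *Lrg1*, *Ly6a*, *Ramp3*, *Apln*, *Eln* and *Mcm5* in set 3, and *Ccl21a* in set 1.

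Hemoglobin aside, the genes furthest higher in set 3 than in set 2 were *Lrg1* and *Ly6a*. *Lrg1*, a secreted glycoprotein that modifies TGF-beta signaling in endothelium, was at 0.164 (0.128 to 0.205), 0.193 (0.157 to 0.234) and 1.33 (1.21 to 1.47), 6.92-fold higher in set 3 than in set 2 (5.55 to 8.68) and 8.14-fold higher than in set 1 (6.34 to 10.6). Reads of *Ly6a* may be shared with near-identical copies of its family, so its values are uncertain. *Ly6a*, the surface protein Sca-1, was at 2.11, 2.58 and 13.2, 5.13-fold higher in set 3 than in set 2 (4.82 to 5.46). Sets 1 and 2 did not part in *Lrg1*, with a ratio of 1.18 (0.864 to 1.61). The traces in the other cells had the same order, at 0.00325, 0.00503 and 0.0218 for *Lrg1* and at 0.00924, 0.0203 and 0.0924 for *Ly6a*. *Lrg1* was detected in 9.72%, 9.7% and 34.5% of endothelial cells, and in 3.2%, 3.44% and 18.5% after thinning.

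*Lrg1* was uneven within set 3. It was highest in cluster 3.1, at 2.39, and in the venous-like cluster 3.4, at 2.38, with 0.0683 in the arterial-like cluster 3.8. *Lrg1* is in the venous list and was among the genes behind the name of 3.4, so its level there is a description. *Ly6a* had another pattern, with 35.8 in cluster 3.5, 25.2 in 3.8 and 7.03 in 3.4. In sets 1 and 2 no cluster that was not mixed had more than 0.538 of *Lrg1*, and none more than 9.69 of *Ly6a*. *Ly6a* therefore overlapped between sets by cluster: the lowest of set 3, 7.03, was below the highest of set 1, in arterial-like cluster 1.9.

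**Figure D4:**
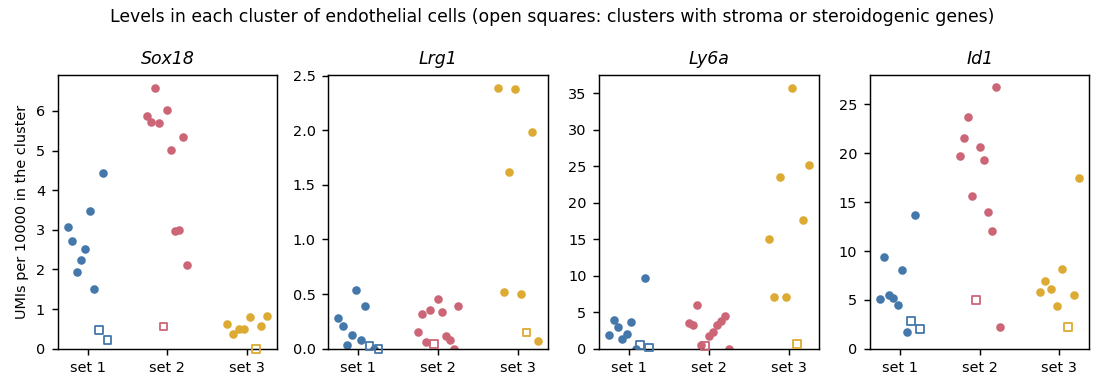
Each point is a cluster of endothelial cells, the vertical axis is UMIs per 10000 summed over the cluster, and columns are barcode sets; open squares are the mixed clusters. For *Sox18* the filled points of set 3, up to 0.819, lie below all filled points of sets 1 and 2, while *Lrg1* is at 1.62 to 2.39 in 4 of the 7 clusters of set 3 and *Id1* is low in lymphatic-like clusters.

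The apelin and adrenomedullin systems, which act on vessel growth and permeability, had 2 of 6 genes past 2-fold higher in set 3 than in set 2, against 0.614% of all genes. *Apln*, the ligand made by tip cells, was at 0.157, 0.21 and 0.557, 2.66-fold higher in set 3 than in set 2 (2.08 to 3.41), and its receptor *Aplnr* was at 2.38, 2.44 and 3.65, with a ratio of 1.5 (1.38 to 1.62). After thinning *Apln* was detected in 4.15% of endothelial cells of set 2 and 9.84% of set 3. The other cells moved in the same direction, at 0.0809% and 0.386% after thinning. *Ramp3*, which with the receptor *Calcrl* forms an adrenomedullin receptor, was at 0.274, 0.393 and 1.2, 3.04-fold higher (2.56 to 3.63), though its ratio in the other cells was also 2.05. *Ramp3* was uneven within set 3, at 2.91 in the unnamed cluster that held lymphatic, mitotic and macrophage genes. Over the clusters that were not mixed, its median level was 0.119, 0.226 and 0.298 in sets 1, 2 and 3. The highest cluster levels of *Ramp3* were 0.976, 1.05 and 2.91. From set 2 to set 3 the median cluster level thus moved less than the level over all endothelial cells. *Calcrl* itself was at 1.6, 1.46 and 1.52, and its more abundant partner *Ramp2* at 13.3, 15.6 and 17.4. *Apln* and *Ramp3* were the genes past 2-fold among the 6 of this list with enough UMIs, and none of the 6 was past 2-fold lower. *Kcne3*, a potassium channel subunit of the tip cell list, was at 0.0641, 0.149 and 0.36, 5.61-fold higher in set 3 than in set 1 (3.7 to 8.76) and 2.77-fold higher as a mean over cells, while *Angpt2* of that list, the ligand that loosens vessels, was at 0.537, 0.27 and 0.298 and *Dll4*, the Notch ligand of tip cells, at 0.524, 0.662 and 0.279. The 12 tip cell genes had a median ratio of 0.981 from set 2 to set 3, so they did not move together.

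The promoters of *Flt1*, the gene of largest ratio to other cells once the 6 markers of the rule were left out, and of *Lrg1*, *Ramp3* and *Apln*, which were past 2-fold higher in set 3, are shown because ETS factors, a family long known at endothelial promoters, bind the letters AGGAAG. Each runs from 250 bases before the start of the gene to 50 after it, 5′ to 3′ on the strand of the gene, from RefSeq on GRCm38.p6, the release line of the mm10 build named in the submitters' processing notes. They lie at chr5:147725962-147726261 (minus strand), chr17:56121897-56122196 (minus), chr11:6658283-6658582 (plus) and chrX:48034804-48035103 (minus). Capitals mark AGGAAG or its reverse complement.
Flt1: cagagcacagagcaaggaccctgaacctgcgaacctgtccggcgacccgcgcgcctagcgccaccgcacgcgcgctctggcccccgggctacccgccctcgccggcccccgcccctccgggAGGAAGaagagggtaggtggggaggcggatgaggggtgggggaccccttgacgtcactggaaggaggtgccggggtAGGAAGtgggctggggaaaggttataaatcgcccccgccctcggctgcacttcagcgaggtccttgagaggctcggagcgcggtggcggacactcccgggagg
Lrg1: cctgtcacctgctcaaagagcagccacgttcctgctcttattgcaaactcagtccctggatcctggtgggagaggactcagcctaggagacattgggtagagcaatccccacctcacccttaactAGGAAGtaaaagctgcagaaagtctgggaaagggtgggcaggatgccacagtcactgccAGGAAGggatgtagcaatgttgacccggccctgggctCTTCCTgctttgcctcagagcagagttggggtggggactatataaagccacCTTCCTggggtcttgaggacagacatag
Ramp3: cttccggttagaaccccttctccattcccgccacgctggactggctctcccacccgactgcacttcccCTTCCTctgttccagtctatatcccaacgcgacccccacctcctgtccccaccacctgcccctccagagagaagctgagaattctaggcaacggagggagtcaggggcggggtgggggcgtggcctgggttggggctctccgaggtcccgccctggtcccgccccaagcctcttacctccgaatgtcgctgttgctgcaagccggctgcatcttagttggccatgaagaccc
Apln: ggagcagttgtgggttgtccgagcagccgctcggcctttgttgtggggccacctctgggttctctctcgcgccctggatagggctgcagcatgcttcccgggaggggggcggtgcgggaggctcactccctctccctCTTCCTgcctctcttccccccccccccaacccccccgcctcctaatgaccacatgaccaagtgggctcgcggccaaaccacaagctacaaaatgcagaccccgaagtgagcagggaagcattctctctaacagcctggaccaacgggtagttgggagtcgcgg

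*Lrg1* held 4 matches, *Flt1* held 2, and *Ramp3* and *Apln* held 1 each. Of all 32851 promoter windows of this length, 35.4% held at least 1. The windows of *Kdr*, *Klf2* and *Smad6*, which are not shown, held none. Of the 17 ranked genes higher in set 3, 13 had a window and 7 of them a match, the hemoglobin gene *Hba-a1* among them. Of the 20 genes of largest ratio to other cells, 14 had a window and 11 a match. A gene counted when any of its windows matched, so these counts are not like the share of single windows. A match is a description of the letters, and binding was not measured. No window was found in the table for *Sox18* and *Id1*.

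The VEGF and Tie list had none of its 14 genes past 2-fold in any comparison, against 0.483% to 2.01% of all genes by direction. From set 2 to set 3, 9 had intervals below 1, against 24.2% of all genes, and 2 above, against 20.7%. The median ratio was 0.76, against 0.576 for the list in the other cells. From set 1 to set 3 the median ratio was 0.724, against 0.908 over all genes and 0.781 for the list in the other cells. Without the mixed cells *Nrp2*, a co-receptor of VEGF-C in lymphatic and venous endothelium, was past 2-fold lower in set 3 than in set 1, at 2.55, 1.53 and 1.05. *Vegfa* was at 0.13, 0.179 and 0.104 in endothelial cells and at 0.316, 0.575 and 0.299 in the others. The angiopoietin receptor *Tek* was at 1.2, 1.49 and 1.23. The 11 junction genes with enough UMIs and the 12 basement membrane genes had none past 2-fold either, in any of the 3 comparisons. The shares of all genes were again 0.483% to 2.01% by direction. *Cdh5*, *Cldn5*, *Pecam1* and *Esam* of the junction list also chose the cells, so their levels are a description. The basement membrane list had a median ratio of 1.31 from set 2 to set 3, with perlecan (*Hspg2*) at 4.99, 5.52 and 9.03 and the collagen *Col4a1* at 13.9, 13.5 and 18.9. The hypoxia and glycolysis list of 16 genes and the heat shock list of 10 had none past 2-fold in the 3 comparisons. In the capillary list, 1 of the 9 genes with enough UMIs was past 2-fold higher in set 3 than in set 1, against 0.657% of all genes. It was *Fabp4*, a fatty acid carrier, at 0.181, 0.415 and 0.758, and the other cells of set 3 were above it, at 1.36. *Sgk1* was past 2-fold higher in set 2 than in set 1, and *Aqp1* past 2-fold lower in set 3 than in set 1, once the mixed cells were left out. *F3*, the tissue factor that starts coagulation, was past 2-fold higher in set 2 than in both other sets, at 0.0265, 0.362 and 0.013, and the other cells had 0.0817, 6.15 and 0.143, so the endothelial level was below theirs in every set.

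Other genes higher in set 3 by the ranking were *Fxyd5*, a regulator of the sodium pump, at 1.24, 1.43 and 4.1, *Fam167b* at 0.849, 1.47 and 3.37, *Tinagl1*, a matrix protein, at 0.871, 1.22 and 2.87, and *Lmna*, the nuclear lamin, at 1.66, 2.03 and 5.21. *Asns*, the asparagine synthetase, was at 0.102, 0.0812 and 0.379, and the glutamine transporter *Slc1a5* and the spermidine synthase *Srm* were higher too, by 3.7-fold (2.81 to 4.9) and 3.77-fold (3.05 to 4.68) from set 2. Several of them were also higher in the other cells of set 3: the set 3 over set 2 ratios there were 2.53 for *Fxyd5*, 2.79 for *Asns*, 2.53 for *Slc1a5* and 2.33 for *Srm*. *Anxa2*, a binding site of plasminogen activation, was at 6.4, 6.26 and 15.5, with 2.39, 2.3 and 6.05 in the others. For these genes the other cells thus had the same order of sets 2 and 3. Genes lower in set 3 than in set 2 were led, beside *Sox18* and *Ccl21a*, by *H2-T23* (6.62-fold, 3.83 to 12.4), *Slc16a4* (6.6-fold, 3.66 to 13.1), *Iigp1* (5.01-fold, 3.58 to 7.21) and *Chp2* (4.35-fold, 3.1 to 6.28). *H2-T23* and *Iigp1* respond to interferon. Of the interferon list, 10 genes had enough UMIs from set 2 to set 3. None of them was past 2-fold, against 0.614% of all genes higher and 1.31% lower. Intervals were below 1 for 5 and above 1 for 2, against 24.2% and 20.7% of all genes. The median ratio was 0.625, against 0.99 for the list in the other cells. The ranking also held *Saa3*, *Bhmt*, *Pik3c2g* and *Hsd17b7*, which lead the mixed cluster 2.5, and *Saa3* was at 0.177 in set 2 with the mixed cells and at 0.00912 without them.

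**Figure D5:**
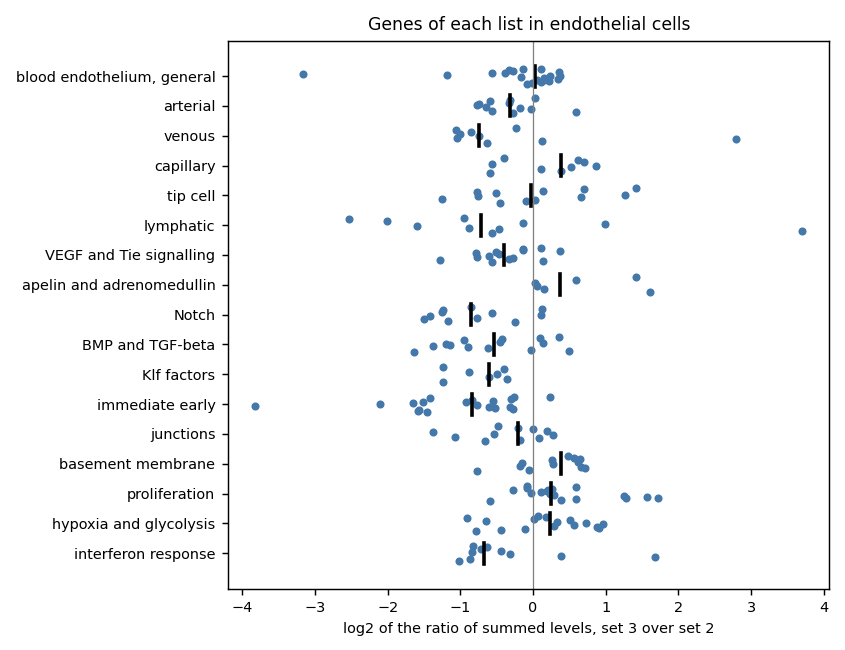
Each point is a gene with at least 50 UMIs over sets 2 and 3, the horizontal axis is the log2 ratio of its level in endothelial cells of set 3 over set 2, and black bars are the medians of the lists. Immediate early, Klf, Notch and BMP genes lie mostly below 0, *Sox18* is the far left point of the general list and *Lrg1* the far right point of the venous list.

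Of the 12 arterial genes, 2 were past 2-fold higher in set 2 than in set 1 and none lower, against 0.483% and 0.521% of all genes. All 12 had intervals above 1, against 9.51% of all genes, with a median ratio of 1.57 against 1.88 for the list in the other cells, and *Gja5*, the connexin of arterial endothelium, and *Stmn2* were past 2-fold, at 0.142, 0.411 and 0.33 and at 0.345, 1.06 and 0.93. Without the 5% of members with the most UMIs the ratio of *Stmn2* from set 1 to set 3 was 1.74 in place of 2.7. The chemokine *Cxcl12* was at 1.91, 3.25 and 4.88, past 2-fold from set 1 to set 3 (2.55-fold, 2.34 to 2.77). *Eln*, the elastin of artery walls, was at 1.01, 3.63 and 5.09, but 87.3% of its UMIs in set 2 and 89.6% in set 3 lay in the arterial-like clusters 2.10 and 3.8, of 37 and 23 cells. Its level over all endothelial cells therefore followed those cells, and as a mean over cells its ratio of set 3 over set 1 was 2.95 in place of 5.04. *Plac8*, at 0.283, 1.82 and 1.98, was at 0.107, 1.72 and 0.874 without the mixed cells. Venous genes had none past 2-fold from set 1 to set 2. From set 2 to set 3, 7 of the 9 with enough UMIs had intervals below 1, against 24.2% of all genes, with a median ratio of 0.596 against 0.694 for the list in the other cells, and *Lrg1* was the 1 gene with an interval above 1, against 20.7% of all genes, and past 2-fold. From set 1 to set 3, 1 of the 9, *Cpe*, was past 2-fold lower, against 2.01% of all genes, though not without the mixed cells. *Vwf* was at 0.27, 0.436 and 0.217 and *Selp*, the P-selectin of leukocyte capture, at 0.0929, 0.0812 and 0.0389.

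Of the 18 proliferation genes, 15 had intervals below 1 from set 1 to set 2, against 20.8% of all genes, and none above, with a median ratio of 0.684 against 0.695 for the list in the other cells, and none of the 18 was past 2-fold there. *Mki67*, present through the dividing cycle, was at 1.31, 0.693 and 0.654. *Mcm3* and *Mcm5*, parts of the helicase that is loaded before S phase, were at 0.643, 0.396 and 1.17 and at 0.334, 0.194 and 0.641, past 2-fold higher from set 2 to set 3 (2.95-fold, 2.48 to 3.51, and 3.3-fold, 2.59 to 4.23). *Uhrf1*, which carries methylation through replication, was 3.51-fold higher (2.78 to 4.46). *Mcm3* and *Mcm5* were 2 of the 18 genes of the list past 2-fold, against 0.614% of all genes, with none lower, *Mcm6* also passed without the mixed cells, at 0.441, 0.276 and 0.77, and *Uhrf1* is not in it. The other cells had set 3 over set 2 ratios of 1.51, 2.21 and 1.86 for the 3 genes. *Mki67* was detected in 12.4%, 6.59% and 7.09% of endothelial cells after thinning.

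The gonadotropin that was injected acts on *Lhcgr*, the LH receptor. *Lhcgr* was at 1.06, 0.568 and 0.0162 in endothelial cells and at 3.12, 1.25 and 0.27 in all others, and without the mixed cells at 0.252, 0.0798 and 0.0149. Its level in endothelial cells was thus below that of the other cells in every set, and in sets 1 and 2 it came largely from the mixed cells. *Scarb1*, the HDL receptor, was at 2.24, 2.28 and 0.79, and without the mixed cells at 1.34, 1.6 and 0.785. The granulosa list summed to 6.09, 6.85 and 3.51 in endothelial cells against 71.9, 84.1 and 31.5 in the others, the theca and steroidogenic list to 21, 16.7 and 3.63 against 75.5, 73.7 and 39.2, and the stroma list to 8.16, 7.7 and 6.18 against 29, 30.5 and 23.3. The rule limited *Inha* of the granulosa list and *Cyp17a1* of the theca list, so the endothelial cells are lower in these lists partly by selection. The leukocyte list was at 0.334, 0.14 and 0.499, with *Ptprc* at 0 by the rule, and the erythrocyte list at 1.82, 0.0661 and 4.98. Hemoglobin led the genes lower in set 2 than in set 1 and those higher in set 3 than in set 2: *Hbb-bs* was at 1.01, 0.0208 and 2.6, with 95% of its UMIs in set 1 in cluster 1.10 and 91.7% in set 3 in cluster 3.5. The pericyte and smooth muscle list was at 2.8, 7.49 and 7.7 against 11, 15.8 and 19.6, the epithelium list at 0.0354, 0.272 and 0.0648, and the oocyte list at 0.0177, 0.0321 and 0.0356. With the mixed cells left out, the theca and steroidogenic list was at 4.22, 5.1 and 3.3, the stroma list at 2.78, 1.44 and 0.937, the pericyte and smooth muscle list at 1.39, 1.04 and 4.45, the granulosa list at 4.67, 6.22 and 3.19, the leukocyte list at 0.394, 0.128 and 0.565, the epithelium list at 0.0192, 0.0502 and 0.0223, the oocyte list at 0.0192, 0.0319 and 0.0149, and the erythrocyte list at 0.11, 0.0775 and 5.71. The excess of the theca and steroidogenic list in sets 1 and 2 over set 3 was thus largely in the mixed cells, while the pericyte and smooth muscle list was then highest in set 3, where *Acta2* and *Tagln* were past 2-fold higher than in set 2. The part of these other cells in each result was not tested beyond the values without mixed cells.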

How the data were processed

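The labels describe 3 libraries of mouse ovary, 0, 1 and 6 h after hCG, and the cells were grouped by the ending of their barcode. Per the labels' processing notes, Cell Ranger and Seurat were used on the mm10 build, with no versions or filters given. The authors deposited 1 table of 24958 genes and 31776 cells in natural log units, the log of 1 plus UMIs per 10000 UMIs of the cell. All 80167176 values above 0 came out as whole UMIs within 0.01 (largest deviation 1.32e-11), and a cell had at least 500 UMIs. The members and gene lists were chosen with earlier results of these data known.

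UMIs were summed over members, ratios took exact conditional binomial intervals, and genes needed 50 UMIs over both sets. Cells were clustered on 2000 variable genes, 20 principal components and 15 neighbours. Named were the genes of the rule and lists, the 20 of largest ratio to other cells, and the 10 of largest change by the bound nearest 1 in each direction, at least at the level of the other cells of that set. Genes of the rule, mitochondrial, ribosomal, Gm and Rik genes were left out of the rankings. Genes named as examples of a list were picked after their values were seen. Doublets were not removed. The interval code was tested on simulated data. Alternatives were other marker numbers, cells, folds, filters and scalings. Python packages were scipy 1.17.1, numpy 2.4.6, python-igraph 0.11.9 and scikit-learn 1.9.0.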

Additional observations from a re-analysis of the deposited data

How the results depend on the processing

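No paired analysis was possible because each time point has 1 library and the barcode sets carry no replicate numbers. For *Apln*, *Ccl21a*, *Ccn1*, *Cxcl12*, *Eln*, *Hbb-bs*, *Id1*, *Kcne3*, *Klf2*, *Lrg1*, *Ly6a*, *Mcm5*, *Mmrn1*, *Prox1*, *Ramp3*, *Smad6*, *Sox18* and *Stmn2*, whose ratios were recomputed under the alternatives, no called ratio changed direction, and the other named genes were recomputed only without the mixed cells. Sizes did move: *Prox1* was 2.4- to 4.82-fold lower in set 2 than in set 1, and 2.52- to 4.59-fold lower in set 3 than in set 2. *Mmrn1* was 2.51- to 6.71-fold lower in set 2 than in set 1. The limit moved the counts of genes past it: with 1.5 in place of 2 they were 276, 679 and 791 genes (sets 2 against 1, 3 against 2 and 3 against 1), with 3 they were 32, 57 and 103, and with the point estimate in place of the bound 319, 750 and 858. Without the 5% of members with the most UMIs, set 2 against set 1 had 68 genes in place of 104. Members by at least 2 markers were 7.46% of all cells and 6.72%, 9.67% and 6.2% of sets 1, 2 and 3. By at least 4 they were 4.88% of all cells, 6.72% of set 2 and 3.74% of set 3. With no limits on *Inha*, *Cyp17a1* and *Ptprc* they were 5.74% of all cells and 7.93% of set 2, and after thinning 4.7% of all cells and 4.12%, 6.63% and 3.58% of the sets. The lymphatic share with both *Lyve1* and *Ccl21a* was 3.77% of all members and 7.49%, 2.87% and 1.27% of the sets. With at least 3 lymphatic list genes it was 10.2% of all and 13.8%, 6.56% and 12.1% of the sets (8.74%, 3.15% and 2.29% after thinning), against 19.2% of the other cells of set 3, and with *Lyve1* or *Ccl21a* after thinning 5.24% of all. At resolution 0.5, sets 1 and 2 had 6 and 7 clusters. Leaving out members with over 0.5% of UMIs from other-cell lists, the mixed clusters or shared barcodes was chosen after seeing the data. *Hbb-bs* depended most on the cells kept, at 125-fold of set 3 over set 2 and 3.15-fold without members over 0.5%. Without the cells with *Lyve1* or *Ccl21a*, *Mmrn1* was at 0 in set 3. The cause of these shifts was not tested beyond what each setting removes. With 1 library per time point, the intervals hold counting error only, and genes under 50 UMIs were not compared.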
